A study of Homo sapiens with 4 samples.

Results

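The H3K27ac landscape around the caveolin and cavin genes was examined in triple-negative breast cancer cells. The set held 7 genes chosen by name from what their proteins do, namely the caveolins CAV1, CAV2 and CAV3, the cavins CAVIN1, CAVIN2 and CAVIN3, and EHD2, out of 19970 protein-coding genes on chromosomes 1 to 22 and X. The choice was made with earlier results of these data known. H3K27ac, the acetylation of histone H3 at lysine 27, marks active promoters and enhancers, and it was measured by chromatin immunoprecipitation and sequencing. The cells were MDA-MB-231 and Hs578T, established human triple-negative breast cancer lines, each with 2 replicates. Cells of both lines had been starved of serum for 8 h, had received the cytokine TWEAK at 10 ng/ml for 48 h, renewed at 24 h, and were then kept without it for 72 h per the labels. All 4 libraries thus shared the same treatment, and no untreated library was analysed here, so no effect of TWEAK was measured.

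Caveolae are flask-shaped pits of the plasma membrane that buffer membrane tension and gather signalling receptors. Caveolin-1, usually paired with caveolin-2, inserts into the membrane and builds their scaffold, and caveolin-3 takes that place in muscle. The cavins form a coat on the cytosolic side, for which CAVIN1 is required, whereas CAVIN2 helps to bend the membrane and CAVIN3 joins the coat in many cell types. EHD2 is an ATPase that sits at the neck of the pit and holds it at the cell surface. Caveolin-1 is known to be abundant in mesenchymal and basal-like breast cancer cells.

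The peak lists differed in size, and 1 of them stood apart. With 209 peaks, MDA-MB-231 replicate 1 was far smaller than its own replicate, which held 43353, and than the Hs578T lists, which held 46330 and 44920. None of its peaks lay within 100 kb of any of the 7 genes, so it shared none there with its own replicate, and a count of 0 allows a share of up to 1.44% of the list. The MDA-MB-231 values below therefore rest on 1 list, and values are given for each of the 3 large lists in the order MDA-MB-231 replicate 2, Hs578T replicate 1 and Hs578T replicate 2. No test between lines was made, because 0.333 is the smallest two-sided p that an exact permutation of 2 against 2 lists allows. Read depth is unknown. The mesenchymal markers VIM, CD44, AXL and ZEB1 had a promoter peak in each large list, whereas the luminal markers ESR1, GATA3, FOXA1 and ESRP1 had none. Such a peak was present in each large list for 55.6% of all genes and absent from every list for 40.7%. Ranked by fold enrichment among genes with such a peak, CD44 lay at percentiles 49.5, 57.5 and 64.5. VIM, AXL and ZEB1 lay at 84.8 or above. With 4 genes per set, the counts describe the lists and do not test the identity of the cells. None of 4 adipocyte markers and none of 4 skeletal muscle markers had a promoter peak in any list. Of 4 endothelial markers, CDH5, VWF and TEK had none, whereas the start of PECAM1 was marked at a fold enrichment of 14.3 in MDA-MB-231 replicate 2 and 2.82 in Hs578T replicate 1.

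The bases just before the start sites are shown first, because the promoters of the caveolins differ in base composition and in whether they were marked. They come from RefSeq on GRCh38.p14, whose table held 5 of the 7 genes, and CAVIN1 and CAVIN3 had no entry. Each run reads 5′ to 3′ in the direction of transcription and ends at the base before the start site of the canonical transcript, except that of CAV1, which ends 43 bases before it. Capitals mark matches on either strand to the AP-1 motif TGACTCA, the GC box GGGCGG, the TEAD motif GGAATG or the TATA box TATAAA.
CAV1, chr7:116524814-116524993, plus strand: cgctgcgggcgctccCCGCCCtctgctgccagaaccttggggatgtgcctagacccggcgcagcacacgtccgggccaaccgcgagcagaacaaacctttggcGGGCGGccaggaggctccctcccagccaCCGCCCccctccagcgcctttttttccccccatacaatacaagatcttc
CAV2, chr7:116499558-116499737, plus strand: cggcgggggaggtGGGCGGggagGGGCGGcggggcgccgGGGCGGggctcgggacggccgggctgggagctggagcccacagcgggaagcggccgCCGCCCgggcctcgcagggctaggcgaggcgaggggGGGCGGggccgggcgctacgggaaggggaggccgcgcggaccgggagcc
CAV3, chr3:8733622-8733801, plus strand: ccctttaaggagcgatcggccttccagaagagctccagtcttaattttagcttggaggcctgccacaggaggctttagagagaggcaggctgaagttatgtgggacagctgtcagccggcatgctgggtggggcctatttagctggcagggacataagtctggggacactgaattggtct
CAVIN2, chr2:191847089-191847268, minus strand: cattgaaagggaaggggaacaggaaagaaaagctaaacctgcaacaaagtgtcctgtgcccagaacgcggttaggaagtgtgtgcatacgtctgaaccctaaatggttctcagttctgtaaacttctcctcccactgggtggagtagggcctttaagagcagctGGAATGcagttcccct
EHD2, chr19:47713242-47713421, plus strand: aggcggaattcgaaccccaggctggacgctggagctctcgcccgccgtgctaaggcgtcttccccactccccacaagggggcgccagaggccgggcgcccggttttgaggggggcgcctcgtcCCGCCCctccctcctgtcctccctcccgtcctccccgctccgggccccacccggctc

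Over the 250 bases before the start site, CAV2 was the richest in G and C at 83.2%, followed by EHD2 at 69.6%, CAV1 at 63.2%, CAV3 at 57.2% and CAVIN2 at 48%. The median of 27195 RefSeq promoters was 58%. CpG dinucleotides followed a similar order, with an observed to expected ratio of 0.859 for CAV2, 0.695 for CAV1, 0.666 for EHD2, 0.283 for CAVIN2 and 0.247 for CAV3, against a median of 0.558. The GC box occurred 6 times before CAV2, 3 times before CAV1 and 1 time before EHD2, and 42.4% of all promoters held it. CAVIN2 held 1 TEAD match, a motif present in 11.9% of promoters. No AP-1 or TATA match lay in these 250 bases, which is the case of most promoters, since 4.12% and 11.1% held one. The promoter of CAV3 held none of the 4 motifs.

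Promoter peaks were then counted. A gene was called marked when a peak overlapped the 1 kb on either side of the start site of its canonical transcript. Of the 7 genes, 6 were marked in each large list (CAV1, CAV2, CAVIN1, CAVIN2, CAVIN3 and EHD2) and 0 in MDA-MB-231 replicate 1. The share of all protein-coding genes marked was 58.1%, 58.2% and 56.4% in the large lists and 0.0601% in MDA-MB-231 replicate 1, and 55.6% were marked in each of the large lists. CAV3 had no promoter peak in any list, like 40.7% of genes. Among the 6 marked genes the promoter peak had a median fold enrichment over local background of 14.0, 11.4 and 8.54, beside 9.18, 8.13 and 6.86 over all marked genes, and a median width of 4182.5, 4652.5 and 3922 bp, beside 1792, 1897 and 1804 bp. The 6 genes came in the same order of fold enrichment in each large list, from CAVIN3 through CAV1, CAV2, CAVIN1 and CAVIN2 to EHD2.

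**Figure D1:**
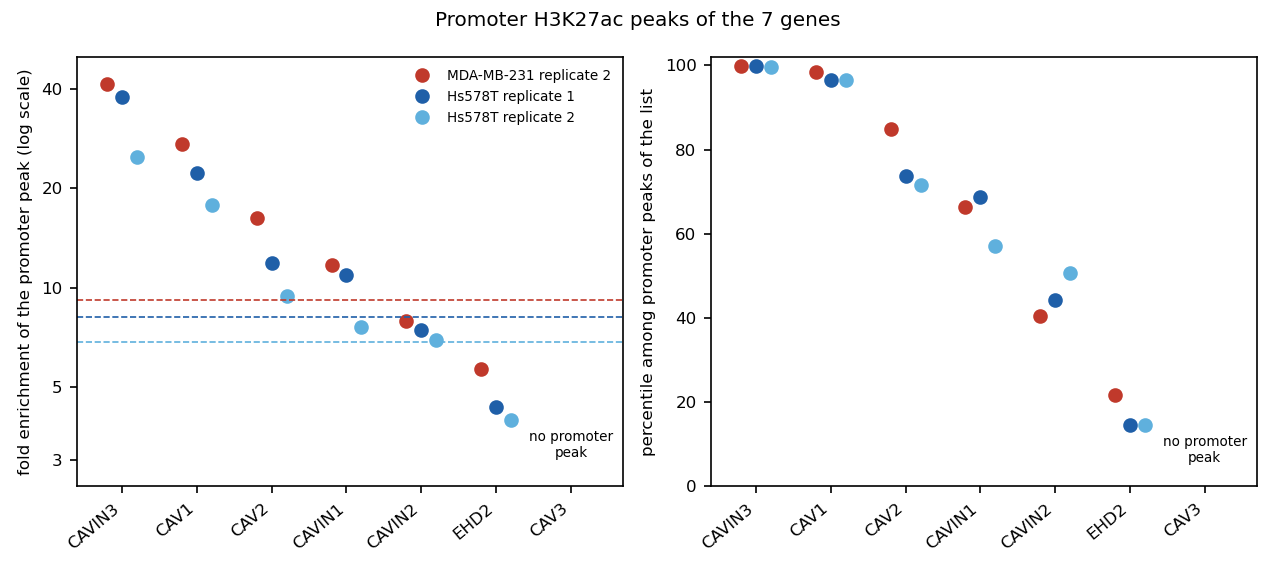
Promoter H3K27ac peaks of the 7 genes in the 3 large lists, as fold enrichment on a log axis (left, with dashed lines at the median of all marked genes of each list) and as percentile of fold enrichment among marked genes of the same list (right). Each point is 1 list, CAVIN3 and CAV1 lie above the 96th percentile in each list, EHD2 lies below the 22nd, and CAV3 had no promoter peak.

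CAV1 encodes the principal scaffold protein of caveolae, and its start site lies on chromosome 7 at position 116525036 of hg38, plus strand. Its promoter peak was 8604, 8769 and 8773 bp wide, or 8771 ± 2.83 bp in Hs578T (SD, n = 2). Fold enrichment was 27.2, 22.2 and 17.8, which ranked at percentiles 98.4, 96.4 and 96.6 among marked genes. The peak reached 4558, 4237 and 4075 bp upstream and 4045, 4531 and 4697 bp into the first part of the gene, so that it lay about evenly around the start site. A promoter peak of at least 8 kb in each large list was found for CAV1 alone of the 7 genes and for 1.24% of all genes. This share, too, is over all genes, of which 55.6% were marked in each large list. Within the rest of the canonical CAV1 transcript the strongest other peak had a fold of 2.45, 2.54 and 2.60.

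CAV2 encodes the partner of caveolin-1 and starts 25298 bp upstream of CAV1 on the same strand. Its promoter peak was 3644, 3381 and 3238 bp wide with a fold enrichment of 16.3, 11.9 and 9.45, at percentiles 84.8, 73.8 and 71.7. The peak was thus narrower and ranked lower than that of CAV1 in every large list. The CAV2 promoter held more GC boxes than that of CAV1, and whether GC boxes relate to the peaks was not tested. Between the promoter peaks of the pair lay another region, starting 9039 bp downstream of the CAV2 start site and past the end of that gene, with a fold of 14.4, 15.1 and 13.7 and a width of 4860, 4938 and 5073 bp. In the Hs578T lists its fold was between those of the CAV2 and CAV1 promoters, and in MDA-MB-231 replicate 2 it was below both.

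CAV3, the muscle caveolin, differed from its relatives. Its start site, on chromosome 3 at position 8733802 of the plus strand, had no peak within 1 kb, but a peak lay in its intron in each large list. That region began 5394 bp past the start site, with a fold enrichment of 11.4, 13.2 and 10.4 and a width of 4233, 4378 and 4586 bp. The muscle markers MYOD1, MYOG, CKM and DES had no promoter peak in any list. Genes without a promoter peak but with a peak inside the canonical transcript in each large list made up 7.95% of genes. That share is over all genes, of which 40.7% had no promoter peak in any list. CAV3 was the only 1 of the 7 in that class.

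CAVIN1, whose product is required for the caveolar coat, starts on chromosome 17 at position 42423256 of the minus strand. Its promoter peak was 4980, 4786 and 4606 bp wide and had a fold enrichment of 11.7, 10.9 and 7.63, at percentiles 66.5, 68.9 and 57.2. It was lopsided, with 803, 828 and 746 bp upstream of the start site and 4176, 3957 and 3859 bp downstream. A further region in the CAVIN1 intron began 8059 bp past the start site, and its strongest peak had a fold of 8.28, 6.21 and 6.36 and a width of 5296, 8989 and 5056 bp. That width differed more between the Hs578T replicates than between MDA-MB-231 replicate 2 and Hs578T replicate 2.

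CAVIN2, which helps to shape the membrane, starts on chromosome 2 at position 191847088 of the minus strand. At its promoter, fold enrichment was 7.92, 7.44 and 6.93, close to the median of marked genes in each list, at percentiles 40.5, 44.3 and 50.8. Its width of 3046, 4519 and 2977 bp gave 3748 ± 1090 bp in Hs578T (SD, n = 2), a spread between replicates that covers the MDA-MB-231 value. No other peak was called within the CAVIN2 canonical transcript.

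CAVIN3, a coat protein that also binds protein kinase C delta, starts on chromosome 11 at position 6320501 of the minus strand and carried the strongest promoter peak of the set. Fold enrichment was 41.5, 37.8 and 24.8, at percentiles 99.9, 99.8 and 99.6, and width was 4721, 4830 and 4738 bp. This placed the CAVIN3 promoter at the top of its range in each large list. The CAVIN3 peak reached 2594, 2451 and 2509 bp upstream and 2126, 2378 and 2228 bp downstream, and so covered the whole canonical transcript, which ends at position 6318946.

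EHD2, the ATPase of the caveolar neck, starts on chromosome 19 at position 47713422 of the plus strand and had the weakest promoter peak of the 6. Fold enrichment was 5.67, 4.35 and 3.98, at percentiles 21.8, 14.7 and 14.6, and width was 972, 909 and 570 bp. The −log10 of its q-value was 8.90, 9.04 and 5.03, and the peak reached only 71, 21 and 30 bp upstream of the start site. The strongest peak of the gene lay in its intron instead, with a fold of 24.9, 19.9 and 18.3. That peak began 12175, 8123 and 12132 bp past the start site. A promoter peak weaker than another peak of the same canonical transcript in each large list was found for EHD2 alone of the 7 genes and for 8.11% of all genes. That share is over all genes, of which only the 55.6% marked in each large list can be in this class. When only the strongest 50% of peaks of each large list were kept, EHD2 was no longer marked, which left 5 of the 7 genes, beside 45.0%, 45.9% and 42.3% of all genes.

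**Figure D2:**
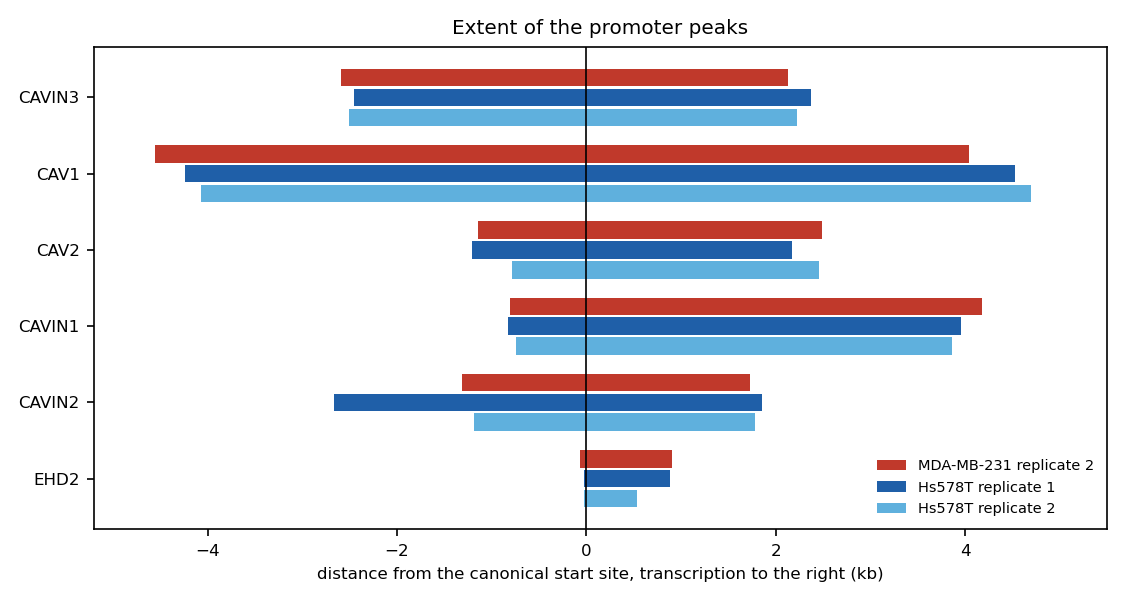
Extent of the promoter peaks of the 6 marked genes in kb from the canonical start site, with transcription to the right. Each bar is the peak of 1 large list, the CAV1 bars are the longest at 8604 to 8773 bp, the CAVIN1 bars reach mostly downstream, and the EHD2 bars are the shortest at 570 to 972 bp.

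Beyond promoters, peaks were collected over each gene body and 100 kb on either side, and CAV1 and CAV2 were treated as 1 locus because their windows overlap. Each of the 7 genes had peaks in its window in each large list, as did 91.7%, 91.9% and 91.7% of all genes. In MDA-MB-231 replicate 1 none of the 7 had a peak there, and 2.54% of all genes did. The 6 windows held 91, 104 and 99 peaks, which covered 226569, 253848 and 237055 bp, and the Hs578T mean was 245452 ± 11874 bp (SD, n = 2). Peaks covered 13.8%, 15.4% and 14.4% of the windows. The median window of all protein-coding genes was covered at 3.96%, 4.37% and 4.0%, and the chromosomes as a whole at 2.70%, 2.99% and 2.77%. The pooled share hides wide differences between the 6 windows, which are given below. The covered length of MDA-MB-231 replicate 2 in the windows was below both Hs578T values. So was its covered length over the whole list, 81.8 Mb against 90.7 and 83.9 Mb.

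**Figure D3:**
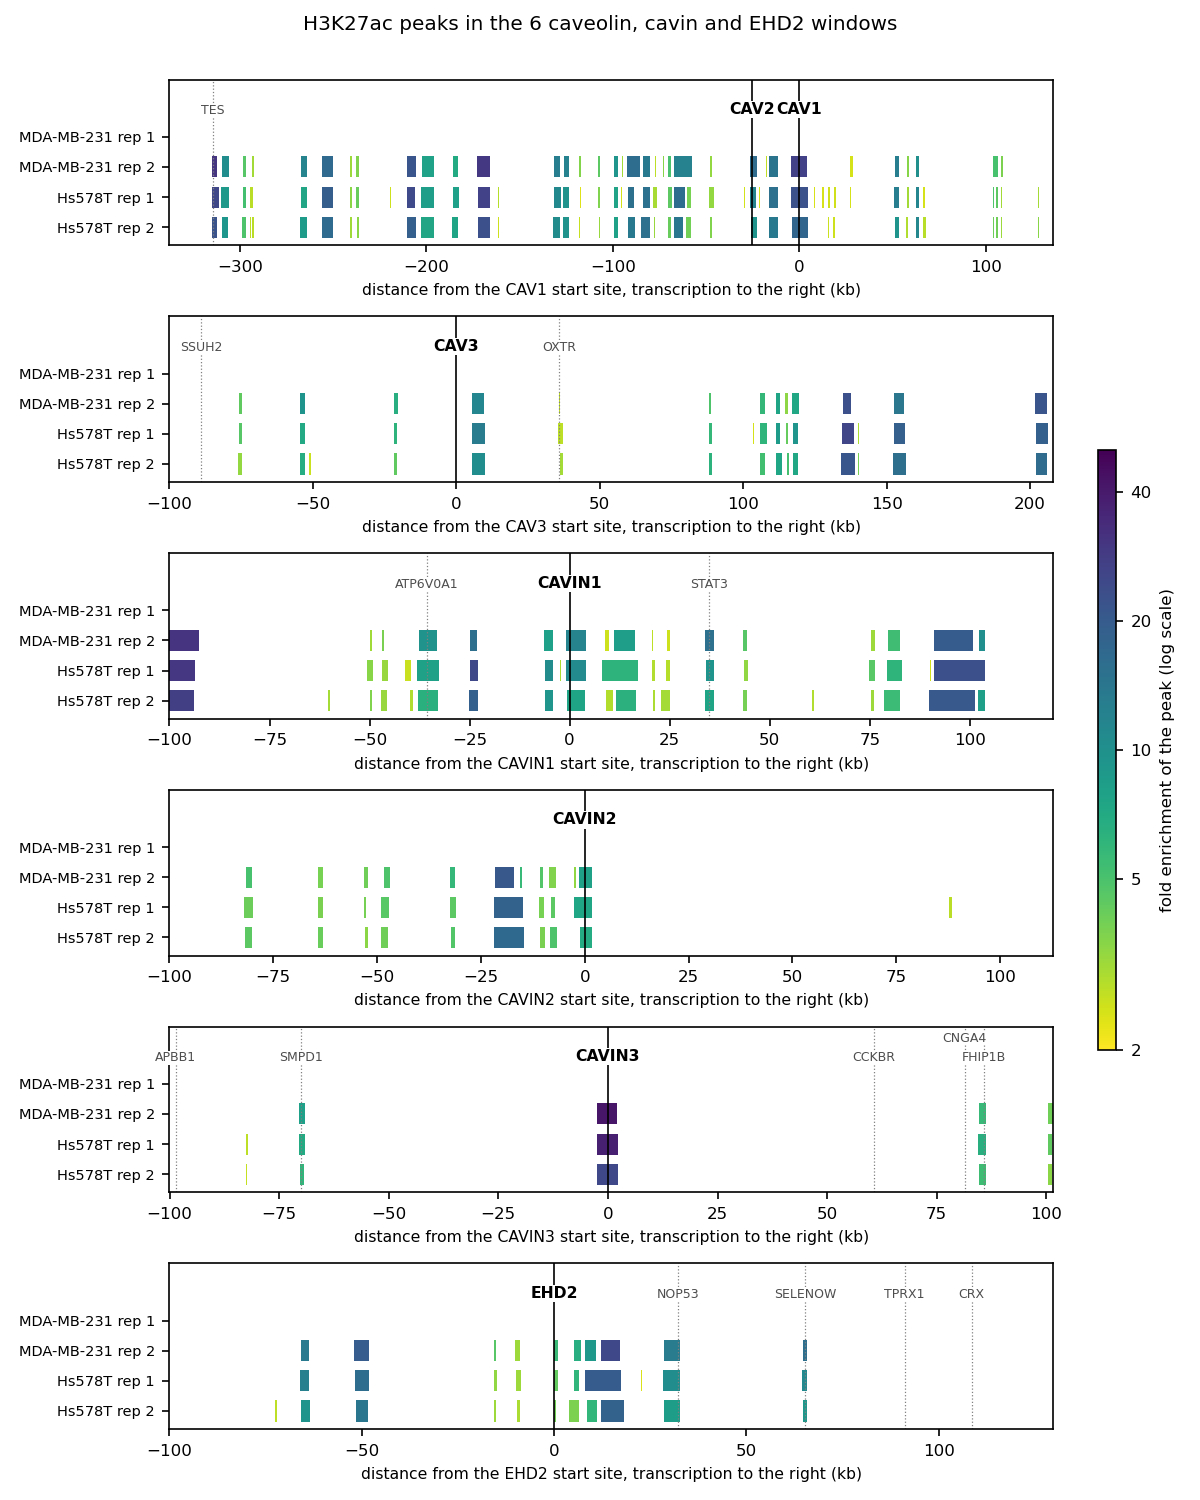
H3K27ac peaks in the 6 windows, 1 row per list, drawn by distance in kb from the start site of the named gene (CAV1 for the joined locus) with transcription to the right. Color gives fold enrichment on a log scale, solid lines mark start sites of the 7 genes and dotted lines those of neighbouring genes, the row of MDA-MB-231 replicate 1 is empty, and the other 3 rows show 82 of 107 regions in common.

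The CAV1/CAV2 window held the most peaks of the 6. It had 36, 46 and 39 peaks over 103439, 109295 and 99237 bp, or 45.7%, 43.1% and 41.9% of the covered bases of the 6 windows. That was 21.8%, 23.1% and 20.9% of a window of 473800 bp, at percentiles 98.5, 98.3 and 98.2 among the windows of protein-coding genes, whose median was 3.96%, 4.37% and 4.0%. The window is long because some noncanonical CAV2 transcripts start far upstream, at position 116287380. With windows drawn around the canonical transcripts, a choice made after the data were seen, the covered length was 57383, 58657 and 50662 bp and the covered share 21.9%, 22.4% and 19.4%. The covered share therefore moved by less than the covered length, which then lay near the 47222, 57198 and 54271 bp of CAVIN1.

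Peaks were not spread evenly over the CAV1/CAV2 locus. The 25.3 kb from the CAV2 to the CAV1 start site was covered at 48.2%, 46.4% and 45.9%. From the end of TES, the neighbour upstream, to the CAV2 start site, 241 kb was covered at 27.7%, 27.4% and 25.6% by 22, 25 and 22 peaks. In contrast, the 100 kb after the end of CAV1 was covered at 8.77%, 9.09% and 8.47%. The body of CAV1 itself was covered at 15.4%, 25.3% and 18.3%, with 2, 6 and 3 peaks, and here the Hs578T replicates differed by more than MDA-MB-231 replicate 2 and Hs578T replicate 2 did. TES, which encodes a protein of focal adhesions, had a promoter peak with a fold of 30.5, 25.1 and 21.9, above that of CAV1 in each large list.

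The window of CAVIN1 had a covered share close to that of the CAV1/CAV2 locus or above it. Its 17, 18 and 20 peaks covered 21.4%, 25.9% and 24.6% of the window, at percentiles 98.4, 98.8 and 99. The STAT3 promoter lies in this window, with a fold of 15.3, 9.39 and 7.65, as does that of ATP6V0A1, with 9.51, 7.92 and 6.46. STAT3 encodes a transcription factor and ATP6V0A1 a subunit of the vacuolar proton pump. Peaks over their promoters and bodies counted toward the covered share of the CAVIN1 window, and which gene a distal peak acts on was not measured.

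The other windows were closer to those of most genes. EHD2 was covered at 10.2%, 11.0% and 10.5% (percentiles 84.0, 83.1 and 85.1), and CAV3 at 8.67%, 10.2% and 10.1% (percentiles 78.2, 80.4 and 83.7). CAVIN2 followed at 8.04%, 10.1% and 9.10%, at percentiles 75.4, 80.1 and 79.9. Lowest was CAVIN3 at 4.29%, 4.63% and 4.36%, near the middle of all genes at percentiles 52.9, 52.2 and 53.3. The order of the loci by covered share was therefore not the order of their promoters, since CAVIN3 had the strongest promoter peak and the sparsest window. In the window of CAV3, a canonical transcript alone gave 6.0%, 7.48% and 6.75%, because a long transcript of that gene also extends the window.

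**Figure D4:**
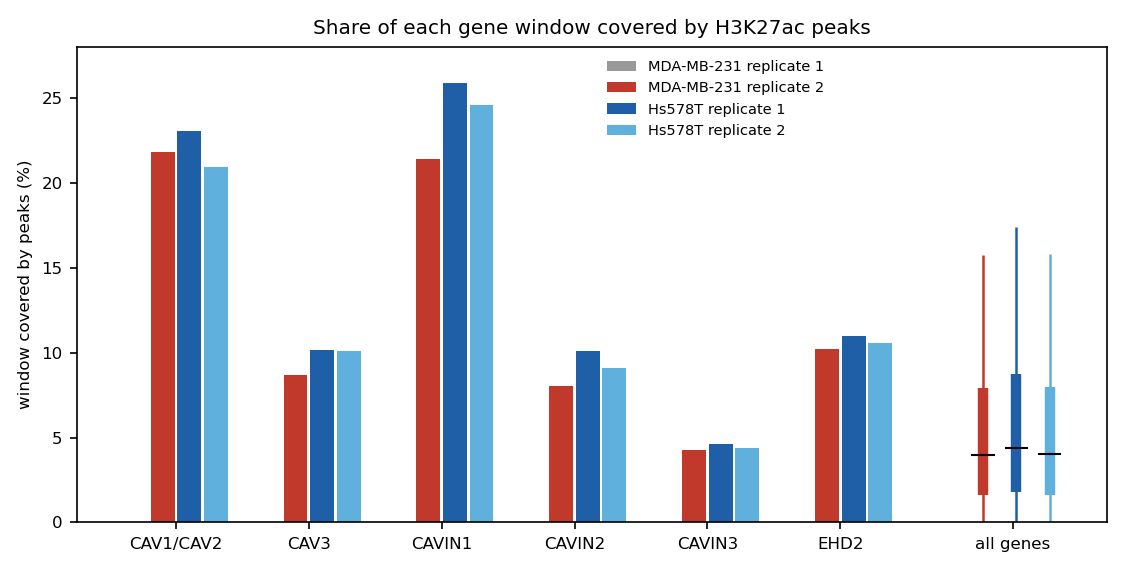
Percentage of each window covered by H3K27ac peaks, with 1 bar per list, and on the right the windows of all protein-coding genes (black tick, median, thick line, 25th to 75th percentile, thin line, 5th to 95th percentile) in the 3 large lists. CAV1/CAV2 and CAVIN1 lie above 20% in each large list, CAVIN3 lies near the median of 3.96% to 4.37%, and MDA-MB-231 replicate 1 is at 0.

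Genes on other chromosomes whose windows were covered most like that of CAV1/CAV2 were IZUMO4, KCNK7, AMOTL2, H1-2 and HAUS4. The Euclidean distance of their covered shares over the 3 large lists was 0.508, 0.621, 0.627, 0.756 and 0.780 percentage points. The comparison ranks genes by 1 number per list over windows of different length, and the lists are alike, so many genes lie close together.

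Next, the strongest region over 2.5 kb from the canonical start site of every protein-coding gene was described at each locus. Start sites of other transcripts, including the noncanonical ones of CAV2, were not considered, so a region called distal may hold one. At CAV1/CAV2 it lay 144 kb upstream of the CAV2 start site, inside the long CAV2 gene body, on chromosome 7 from 116352345 to 116359413, with a fold of 29.5, 26.5 and 22.7. This was above the fold of the CAV1 promoter in each large list and ranked at percentiles 99.2, 98.7 and 98.7 of distal peaks. At CAVIN2 it lay 18.2 kb upstream in intergenic sequence on chromosome 2 from 191861634 to 191868920, with a fold of 20.9, 18.4 and 16.8, more than that of the CAVIN2 promoter itself. At EHD2 it was the intronic region centred 13.0 kb past the start site, from 47721367 to 47731573.

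The remaining loci had their strongest distal region in or near other genes. That of CAV3 lay 136 kb away in the body of RAD18, a DNA repair gene, from 8867830 to 8872710, with a fold of 22.8, 25.4 and 21.3. That of CAVIN1 lay 98.6 kb upstream over ATP6V0A1, from 42515934 to 42527731, with 30.7, 29.9 and 27.6, and it crossed the edge of the window. CAVIN3 had only weak distal peaks, the strongest at 4.04, 4.37 and 3.50 in an intron of FHIP1B, 101 kb away.

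Stretches of 121 bases from the strongest distal regions of CAV1/CAV2, CAVIN2 and EHD2 are shown. These regions do not lie in the body of another protein-coding gene and had a higher fold than the promoters in each large list. That of CAV1/CAV2 lies 144 kb from the CAV2 start site and outside the canonical transcript. The distal region of CAVIN1, over ATP6V0A1, also had a higher fold than the CAVIN1 promoter. The stretches were read from hg38 on the plus strand around an AP-1 match, which stands in capitals, so each holds a match by choice. The match is the one nearest the middle of the part of the region that the large lists share. Those parts are 6397, 4521 and 5007 bp long and hold 2, 1 and 1 matches. TGAGTCA is the motif TGACTCA read on the other strand.
CAV1/CAV2, chr7:116355661-116355781: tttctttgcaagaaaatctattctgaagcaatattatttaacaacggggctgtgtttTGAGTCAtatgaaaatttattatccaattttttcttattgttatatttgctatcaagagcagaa
CAVIN2, chr2:191867151-191867271: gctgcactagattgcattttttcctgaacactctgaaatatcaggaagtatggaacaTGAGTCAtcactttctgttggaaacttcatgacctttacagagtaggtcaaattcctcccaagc
EHD2, chr19:47729626-47729746: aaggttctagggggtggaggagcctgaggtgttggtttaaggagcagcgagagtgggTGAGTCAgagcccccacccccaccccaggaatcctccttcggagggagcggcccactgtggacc

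AP-1 is a family of transcription factors made of FOS and JUN proteins, and TGACTCA is the sequence they are best known to bind. Of the distal peaks in the 6 windows, 44 of 76, 53 of 89 and 50 of 85 held it at least once, or 57.9% (95% Wilson interval 46.7 to 68.4%), 59.6% (49.2 to 69.1%) and 58.8% (48.2 to 68.7%). The share of all distal peaks was 51.8%, 51.0% and 50.3%, within those intervals for MDA-MB-231 replicate 2, Hs578T replicate 1 and Hs578T replicate 2. Per kb of distal peak the motif occurred 0.375, 0.374 and 0.370 times in the windows, below the 0.458, 0.441 and 0.447 times in all distal peaks. The share with a match and the rate per kb thus pointed in opposite directions, and no excess of the motif at these loci was detectable. Neighbouring peaks are not independent, so the intervals describe counting error only. The share does not take the width of the peaks into account, whereas the rate per kb does.

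Finally, the lists were compared region by region. Merging the 3 large lists gave 107 regions in the 6 windows, of which 82 (76.6%) were called in each list, beside 74.8% of 50576 regions over the whole lists. Of the rest, 9 were called in 2 lists and 16 in 1. There were 7 regions called in both Hs578T lists alone (6.54%, 95% Wilson interval 3.20 to 12.9%) and 2 called in MDA-MB-231 replicate 2 alone (1.87%, 0.514 to 6.56%), beside 5.51% and 3.79% of the regions over the whole lists, which lay within those intervals. The regions missing from at least 1 large list had a mean fold of at most 3.61. By locus, 32 of 46 regions were common to the large lists at CAV1/CAV2, 13 of 16 at CAV3, 15 of 19 at CAVIN1, 9 of 10 at CAVIN2, 4 of 5 at CAVIN3 and 9 of 11 at EHD2.

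With the same peaks as the starting point, both Hs578T lists were overlapped less by MDA-MB-231 replicate 2 than by each other. MDA-MB-231 replicate 2 had 91 peaks in the windows, of which 89 (97.8%, 95% Wilson interval 92.3 to 99.4%) overlapped a peak of Hs578T replicate 1 and 86 (94.5%, 87.8 to 97.6%) one of Hs578T replicate 2. Of the 104 peaks of Hs578T replicate 1, 86 (82.7%, 74.3 to 88.8%) overlapped MDA-MB-231 replicate 2 and 92 (88.5%, 80.9 to 93.3%) overlapped Hs578T replicate 2. Of the 99 peaks of Hs578T replicate 2, 87 (87.9%, 80.0 to 92.9%) overlapped MDA-MB-231 replicate 2 and 95 (96.0%, 90.1 to 98.4%) overlapped Hs578T replicate 1. The intervals of each pair overlapped, and over the whole lists the percentages were 86.4% and 88.8% for Hs578T replicate 1 and 87.9% and 93.4% for Hs578T replicate 2. Those of MDA-MB-231 replicate 2 were 94.2% and 91.2%. At CAV1/CAV2 and EHD2 the 5 strongest regions were the same in the 3 large lists, whereas 4 of 5 were shared at CAV3 and 3 of 5 at CAVIN1 and CAVIN2. CAVIN3, with 4, 5 and 5 peaks, had too few for such a comparison.

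Other genes of caveola biology were set beside the 7. Of 16, 11 had a promoter peak in each large list, beside 55.6% of all protein-coding genes. CAVIN4, PACSIN1, EHD3, NOS3 and CD36 had none in any list, like 40.7% of all genes. CAVIN4 is the muscle cavin, PACSIN1 is best known from neurons and NOS3 from endothelium. The strongest were FLNA, an actin crosslinker that binds caveolin-1, at a fold of 24.9, 21.4 and 20.5, and FLOT1, a membrane scaffold protein, at 24.8, 25.1 and 17.5. EHD1, a relative of EHD2, had a fold of 15.6, 9.96 and 6.38 and a width of 30782, 12858 and 3668 bp, so the peak borders there differed widely between lists. PACSIN2, which bends membranes at caveolae, had 5.48, 4.21 and 3.49. The median percentile of the 11 genes was 46.4, 26.8 and 24.1, beside 75.6, 71.3 and 64.4 for the 6 marked caveolin, cavin and EHD2 genes.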

How the data were processed

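H3K27ac was profiled by ChIP-seq in 2 lines, MDA-MB-231 and Hs578T, and replicate numbers (2 per line) came from the sample titles. The labels give 72 h of washout, but a longer wash-off stands in the text of the study, and which is right is not known here. The authors trimmed reads with Trimmomatic, mapped them to hg38 with Bowtie2, called peaks per library with MACS2 with subtraction of input and removed blacklisted regions. Versions and settings were not given in the sources used here, and broad mode is inferred from the 9 columns. The deposited lists give for each peak a fold enrichment (a ratio over local background), −log10 values of p and q, and a score (10 times the −log10 of q, cut to a whole number). Because peaks were called per library, weak peaks move with depth, which is unknown, and the size of fold enrichment was not compared between lists, whose values are given side by side or as percentiles. The mean fold of a merged region over lists served only to describe and rank regions.

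Gene positions came from GENCODE release 44, and the start site was that of the canonical transcript. A promoter peak overlapped the 1 kb on either side of it, and windows were the gene body and 100 kb on each side. Distal peaks lay over 2.5 kb from the canonical start site of every protein-coding gene, and other start sites were not considered. Percentiles refer to protein-coding genes with a promoter peak, to windows of all protein-coding genes or to all distal peaks of the same list. Lists were compared by overlaps of at least 1 bp. Wilson intervals (95%) describe counting error only and treat neighbouring peaks or regions as independent, which they are not. The genes named were the 7 genes, a list of 16 other caveola genes, marker lists of 4 genes each, neighbours with a start site in a window, and the 5 genes with the most alike window coverage. The members and lists were chosen with earlier results of these data known. Counting and overlap functions were tested on simulated data. Python 3.11.15, pandas 2.3.3 and pysam 0.24.0 were used. Alternatives were other windows and start sites, a −log10 q of at least 5, the strongest 50% of peaks, equal peak numbers, joined peaks, a stricter overlap, other motif windows and leaving out each replicate.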

Additional observations from a re-analysis of the deposited data

How the results depend on the processing

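Of 22 results, 8 in MDA-MB-231 had an SD above their mean because of the small list, and their 78 recomputed values say nothing about stability. Of the 115 recomputed values of the other 14 results, 63 counted as the same and 52 as moved. A value counted as the same if it moved by no more than the SD of the replicates. For shared peaks and the AP-1 share of MDA-MB-231 the limit was the counting interval instead, and for numbers of genes a factor of 1.5. Any change in the MDA-MB-231 promoter percentile counted as moved. In Hs578T the covered length of 245452 bp went to 209947 bp at a −log10 q of at least 5, 194091 bp in the strongest 50% of peaks, 187349 bp with 50 kb and 337811 bp with 200 kb on each side, 225174 bp without peaks at neighbouring start sites, and 179750 bp with windows around canonical transcripts, chosen after seeing the data. The share of Hs578T replicate 2 peaks found in replicate 1 went from 96.0% to 100% at that q, 98.6% with 50 kb and 83.8% when 50% of both peaks had to overlap, and that of MDA-MB-231 replicate 2 peaks in Hs578T from 96.2% to 90.8% at that q and 79.7% with the stricter overlap. The AP-1 share went from 59.2% to 68.0% at that q, 68.8% in the strongest 50% and 34.5% in the central 500 bp for Hs578T, and from 57.9% to 68.4% and 36.8% under the last pair for MDA-MB-231. The share of all distal peaks moved likewise, to 61.7% and 63.3% at that q, 66.5% and 66.0% in the strongest 50% and 31.7% and 31.5% in the central 500 bp for the Hs578T lists and to 66.9% and 32.9% for MDA-MB-231 replicate 2, each within the 95% Wilson interval of the windows. The median percentile of promoter fold went from 67.9 to 62.8 at that q in Hs578T, and from 75.6 to 73.1 at that q, 75.5 with 500 bp and 80.4 in the strongest 50% in MDA-MB-231. Leaving out a replicate moved the mean number of marked genes in MDA-MB-231 from 3 to between 0 and 6, and covered length from 113284 bp to between 0 and 226569 bp, 0 being without replicate 2. Without either Hs578T replicate the covered length was 237055 to 253848 bp. The causes of these moves were not tested. No paired analysis was possible because the results come from no test. Whether depth limits weak regions was not tested, since it is unknown, and the small list leaves MDA-MB-231 without a replicate.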
